A study of Mus musculus with 40 samples.

Results

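The growth hormone, STAT5 and SOCS genes examined here were Ghr, Stat5a, Stat5b, Cish, Socs1, Socs2, Socs3 and Igf1, and their members were all probes to which the array platform's annotation gave 1 of these 8 symbols. That rule returned 10 probes of the 25697 on the array, 2 each for Ghr and Stat5a and 1 for every other gene. Of these, 8 probes of 6 genes were bright enough to be tested, among 12467 probes tested in all. Each of 40 male mice gave 1 Illumina MouseRef-8 v2.0 array of RNA from the thigh muscle, taken at 9 weeks of age after a fast. The study names the strain C57BL/6J, and the labels give the genetic background as C57BL\6. Of the pair of diets in a group's name, the first was eaten by the dam and the second by the offspring from weaning on. LF_LF and LF_HF animals were born to dams on the low-fat diet (LF), HF_LF and HF_HF animals to dams on the high-fat diet (HF), and each group had 10 animals. The LF diet was rich in carbohydrate, the HF diet was low in it, and coconut oil was the main fat of both. The dams ate their diet from before mating until weaning and came from 12 cages, 6 of LF dams and 6 of HF dams. Both offspring diets were sampled in 5 of these cages, 2 of LF dams and 3 of HF dams. Animals with the same cage label came from the same breeding cage and are not independent, so values without single cages are given beside the results that they change.

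Growth hormone from the pituitary binds its receptor Ghr on target cells and activates the receptor-bound kinase Jak2, which phosphorylates the transcription factors Stat5a and Stat5b. Phosphorylated STAT5 moves to the nucleus and induces genes that include Igf1, the main growth factor through which growth hormone acts, and the inhibitors Cish and Socs2. These inhibitors belong to the SOCS family, whose proteins bind activated receptors or JAK kinases and end the signal. Socs1 and Socs3 belong to the same family and are also induced by interferons and by interleukin 6-type cytokines and leptin. Growth hormone is released in pulses in male mice, and the messenger RNAs of Cish and Socs2 are known as early, short-lived responses to a pulse. The arrays measured steady-state messenger RNA only, so neither hormone nor STAT5 phosphorylation was observed.

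STAT5 binds the palindrome TTCNNNGAA (N is any base), which reads the same on both strands. The RefSeq promoter table of mouse build GRCm38.p6 (250 bases before to 50 bases after each annotated start) held 10 promoters for 7 of the 8 member genes, and Socs2 had no entry. The motif was present in the windows of Cish and Socs3 and in none of the other member promoters. Cish held 2 copies, at bases 1 to 9 and 12 to 20 after its start. Socs3 held 1 copy whose first base lay 154 bases before the start used for its window. For Socs3, Igf1 and Stat5b the windows lay inside the annotated span of the gene, and its outer 5′ end was not scanned. Across all 32851 promoter windows of 300 bases, 8.3% held at least 1 copy and 0.457% at least 2. The stretches with the motif are shown because both genes were among the members that varied most between animals, and capitals mark the motif. The Cish stretch is chr9:107296619-107296678 on the plus strand and the Socs3 stretch chr11:117969486-117969545 on the minus strand, both written 5′ to 3′.
Cish: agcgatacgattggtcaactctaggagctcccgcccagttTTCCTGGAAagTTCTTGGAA
Socs3: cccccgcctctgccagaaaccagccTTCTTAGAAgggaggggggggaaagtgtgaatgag
These matches describe the letters in the window, and binding was not measured.

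The intensities were linear fluorescence values that had been made to share 1 distribution over the 40 arrays. A probe was tested where it lay above its own array's median in at least 20 arrays. The tissue label was borne out by its defining genes, since all 10 skeletal muscle markers were tested and the dimmest, the intermediate filament gene Des, ran from 5798.4 to 7937.5, whereas none of the 5 liver markers on the array was tested. A principal component of the untested probes divided the arrays into unlabelled sets of 17 and 23, with 2, 4, 6 and 5 animals of LF_LF, LF_HF, HF_LF and HF_HF in the first. Between the sets 3498 of the 12467 tested probes differed, and among the members only the brighter Stat5a probe did (-0.20 ± 0.043 SE on the log2 scale, limma adjusted p = 0.000522). Lymphocyte markers were high on the arrays of LF_LF animals 2 and 5 and macrophage markers on that of LF_HF animal 6.

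Between animals of 1 group, Cish was far more variable than muscle genes in general. Its intensity ran from 168.3 to 2745.3 over the 40 animals, a 16.3-fold range, and its SD within groups was 0.945 on the log2 scale, above that of 99.9% of tested probes (median SD 0.132). Socs2 (SD 0.374) and Socs3 (SD 0.349) lay above 97.6% and 97.1% of probes. Igf1 had an SD of 0.196, the 2 Ghr probes 0.143 and 0.221, and the 2 Stat5a probes 0.161 and 0.111. The 2 genes that were not tested stayed near the background of the array. Socs1 ran from 60.9 to 84.8 and lay above the array median in 8 arrays, and Stat5b ran from 54.5 to 78.6 and did so in 1 array. For these 2 probes a level cannot be told from background, and nothing is said of their response to diet. Stat5b is the STAT5 form known to carry most of the growth hormone response in liver.

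**Figure D1:**
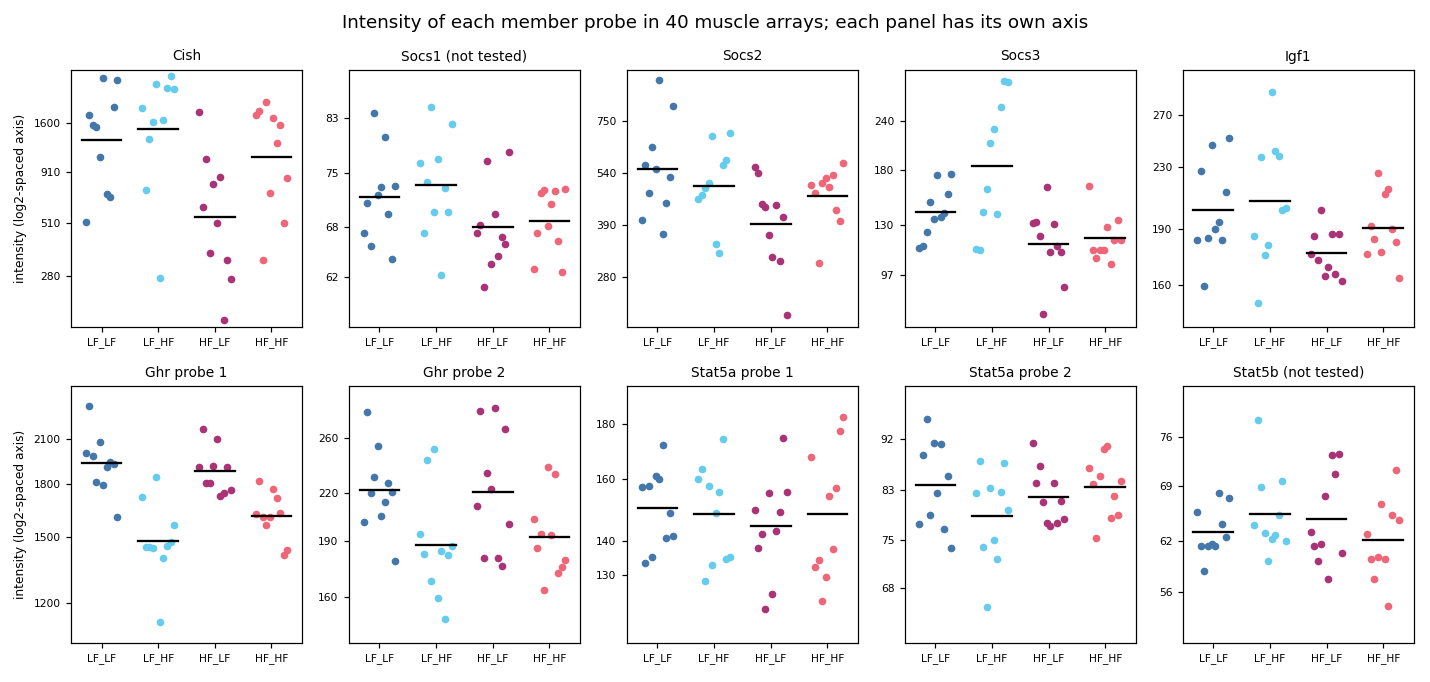
Intensity of the 10 member probes (y axes, log2-spaced, each with its own range) in the 4 diet groups (x axes); points are the 10 animals of a group and bars the mean of log2 values. Ghr was lower in the groups fed HF after weaning, Cish was lowest on average in HF_LF, and Socs3 had its highest values in LF_HF.

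Ghr, the receptor through which growth hormone acts, was lower in animals fed HF after weaning. In LF_LF its brighter probe ran from 1606.5 through a median of 1933.25 to 2349.5, and in LF_HF from 1126.2 through 1453.95 to 1842.2. In HF_LF it ran from 1728 through 1855.85 to 2173.3, and in HF_HF from 1412.1 through 1617.95 to 1818. The groups overlapped in both pairs, but each of the 10 HF-fed animals of LF dams lay below the mean of LF_LF and each of the 10 of HF dams below the mean of HF_LF.

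Among offspring of LF dams Ghr fell by 0.38 ± 0.072 (SE) on the log2 scale, to 0.768 of the LF_LF level, with a limma adjusted p of 0.00319. In this comparison 521 of 12467 tested probes (4.18%) passed an adjusted p of 0.05, and of the 8 member probes Ghr's brighter one did. Among offspring of HF dams the change was -0.22 ± 0.055 (unadjusted p = 0.000601, limma adjusted p = 0.0823), in a comparison where 45 probes (0.361%) passed and no member did. With the array set as a block it was -0.23 (limma adjusted p = 0.0401), and in that fit Ghr passed. The difference between both effects was itself not past the threshold (0.16 ± 0.090, interaction p = 0.0803, limma adjusted p = 0.908). Over both dam diets, with the dam's diet in the fit, Ghr fell by 0.30 ± 0.046 (limma adjusted p = 3.57e-05), in a comparison where 968 probes (7.76%) passed. Within the array sets the change was -0.40 and -0.36 among offspring of LF dams and -0.25 and -0.21 among those of HF dams. In each of the 5 cages that held both diets the HF-fed animals averaged lower, with log2 differences from -0.383 to -0.041. With cage as a fixed block, which kept only the 2 cages of LF dams that held both diets, the change among offspring of LF dams was -0.31 and no longer passed (limma adjusted p = 0.0933).

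The dimmer Ghr probe, which the annotation assigns to another RefSeq transcript of the gene, moved the same way. It had group medians of 220.1, 183.1, 217.05 and 189.6 in LF_LF, LF_HF, HF_LF and HF_HF. Its changes were -0.24 ± 0.089 among offspring of LF dams (p = 0.0125, limma adjusted p = 0.139) and -0.20 ± 0.095 among those of HF dams (p = 0.0486, limma adjusted p = 0.434). Over both dam diets it fell by 0.22 ± 0.066 (limma adjusted p = 0.0322), so that 2 of 8 member probes passed, both of Ghr. That call of the dimmer probe was lost without any of 8 single animals and any of 7 single cages (limma adjusted p up to 0.099), whereas the brighter probe passed in all 40 single-animal and 12 single-cage omissions. The probes had a Pearson r of 0.656 over the 40 animals after group means were subtracted. The dam's diet gave no such difference in Ghr (changes of -0.04 to 0.12 for the brighter and -0.01 to 0.04 for the dimmer probe in the 2 pairwise comparisons).

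Markers of other cell types moved with the offspring's diet, and their part in the Ghr result was examined only by adding a marker score to the fit. Of 6 tested white adipocyte markers, 2 fell over both dam diets, the lipid droplet gene Cidec (-0.76 ± 0.22, limma adjusted p = 0.0265) and the carbonic anhydrase Car3 (-0.43 ± 0.096, limma adjusted p = 0.00303), with a median of -0.393 over the 6. The adipocyte score of the 9 markers on the array, a mean of log2 deviations, had medians of -0.012, -0.183, 0.083 and -0.228 in LF_LF, LF_HF, HF_LF and HF_HF, with ranges of -0.21 to 1.052, -0.501 to 0.277, -0.308 to 0.697 and -0.488 to 0.755. The levels of these markers differed widely. Plin1, Fabp4 and Retn stayed near background and were not tested. Adipoq ran from 152.6 to 2876.7 (median 444.45), Lep from 80.6 to 840 and Cidec from 74.6 to 753. Pparg ran from 100.7 to 333.5 and Lipe from 76.7 to 131.8. Car3 was far brighter, at 2807.3 to 10723.5, so its level cannot be assigned to adipocytes here. It is part of the score, which is therefore not a measure of adipocytes alone. With this score in the fit Ghr changed by -0.25 over both dam diets (limma adjusted p = 0.000684) and by -0.31 among offspring of LF dams (limma adjusted p = 0.0273). Of the 10 slow fibre markers 3 rose over both dam diets, with a median of 0.707, and with a slow fibre score in the fit Ghr changed by -0.32 (limma adjusted p = 8.41e-05). Of 9 tested endothelial markers, Emcn and Eng rose over both dam diets. These marker counts stand beside 7.76% of all tested probes that passed in the same comparison. The group-centred r of Ghr with the adipocyte score was 0.396, and its r with the slow fibre and endothelial scores was 0.239 and -0.27. In whole muscle, fewer cells of a type and less RNA per cell cannot be told apart.

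**Figure D2:**
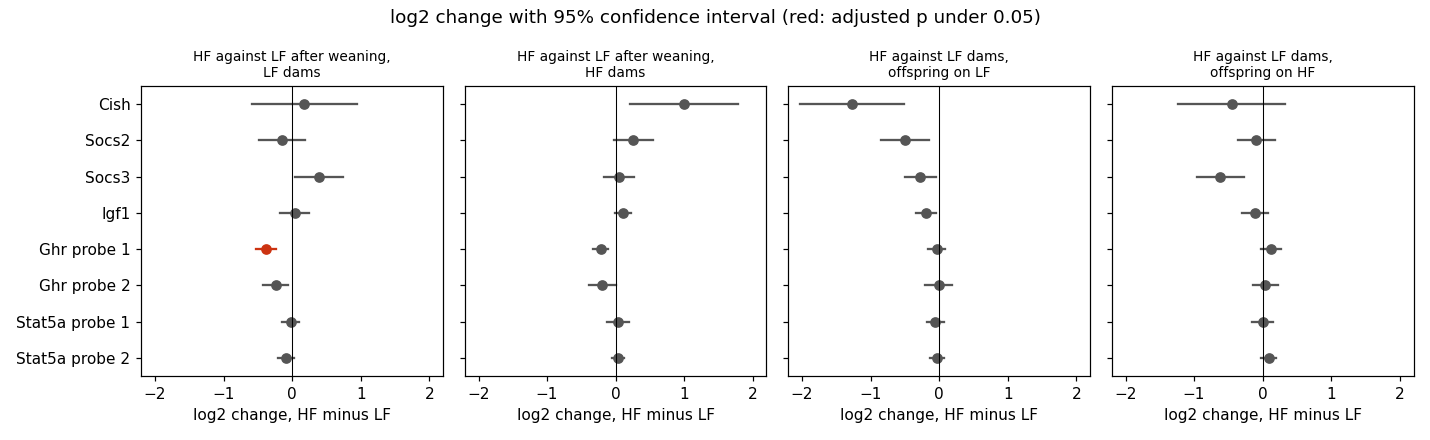
log2 change (x axes, HF minus LF) of the 8 tested member probes (y axis) in the 4 pairwise comparisons of 10 against 10 animals; lines are 95% confidence intervals and red marks an adjusted p under 0.05. Ghr at -0.38 among offspring of LF dams was the only red point, and Cish had the widest intervals.

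With offspring on LF, no member passed the adjusted threshold between dam diets. All 8 tested member probes had a negative change in HF_LF against LF_LF, from -1.27 to -0.01 with a median of -0.123, beside a median of -9e-04 over all tested probes. Of the 8 probes, 4 had an unadjusted p under 0.05, beside 3.88% of all tested probes in the same direction, and the lowest adjusted p was 0.311 (limma). The probes stand for 6 genes that were chosen with earlier results of these data known, so these counts describe the set and do not test it. Over all probes 2 of 12467 (0.016%) passed.

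Cish showed the largest of these differences. In LF_LF it ran from 513.5 through a median of 1545.8 to 2660.5, and in HF_LF from 168.3 through 561.75 to 1818. The groups overlapped widely, and 9 of the 10 HF_LF animals lay below the LF_LF mean. Its change was -1.27 ± 0.37 (fold 0.414, p = 0.00222, limma adjusted p = 0.311), and it was -0.85 and -1.69 within the array sets. In HF_HF Cish ran from 335.9 through 1414.45 to 2022, and its change in HF_HF against HF_LF was 1.00 ± 0.38 (fold 2, p = 0.0149, limma adjusted p = 0.303). The single HF_LF animal of cage 20, at 168.3, was the lowest of all 40, and the 3 HF_HF animals of its cage ran from 716.5 to 1700.8. In LF_HF the gene ran from 273.2 through 1770.25 to 2745.3, and LF_HF differed from LF_LF by 0.18 ± 0.37 (p = 0.634). Over both offspring diets Cish changed by -0.86 ± 0.28 with an HF dam (p = 0.00415, limma adjusted p = 0.205) and over both dam diets by 0.59 ± 0.28 with HF feeding (p = 0.0446, limma adjusted p = 0.224). Its interaction of the 2 diets was 0.82 ± 0.56 (p = 0.152), so the HF_LF group was not shown to respond differently.

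Socs2, the inhibitor whose loss is known to cause overgrowth in mice, did not pass in any comparison. Its medians in the order LF_LF, LF_HF, HF_LF and HF_HF were 541.95, 501.3, 423.4 and 497.3, with ranges of 367.9 to 971.2, 325.7 to 698.1, 220.8 to 561.5 and 306.8 to 575.5. HF_LF differed from LF_LF by -0.50 ± 0.17 (p = 0.00725, limma adjusted p = 0.501), and 9 of the 10 HF_LF animals lay below the LF_LF mean. The same comparison over both offspring diets gave -0.30 ± 0.11 (p = 0.0135, limma adjusted p = 0.326). In the other pairwise comparisons its changes lay between -0.15 and 0.26.

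Igf1 differed less. Its medians were 192.25, 202.15, 174.25 and 187.45 in LF_LF, LF_HF, HF_LF and HF_HF, and its 10 values in HF_LF were the least spread (162.1 to 201.8). HF_LF differed from LF_LF by -0.19 ± 0.071 (p = 0.0142, limma adjusted p = 0.546), and over both offspring diets the change with an HF dam was -0.15 ± 0.059 (p = 0.0138, limma adjusted p = 0.326). The highest Igf1 value, 290.5, came from the LF_HF animal with the highest macrophage marker score (1.315, against group medians of -0.108 to -0.007). Over the 40 animals Igf1 had a group-centred r of 0.561 with that score of 8 markers and 0.369 with a lymphocyte score of 11 markers, most of which were near background. Without the 3 arrays high in immune markers, whose Igf1 values were 227.1, 246.7 and 290.5, the change with an HF dam was -0.13 with offspring on LF (limma adjusted p = 0.649) and -0.10 over both offspring diets (limma adjusted p = 0.669).

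Socs3, the family member also induced by interleukin 6-type cytokines and leptin, was the member that passed in the comparison of dam diets. It ran from 113.7 through a median of 137.65 to 175.7 in LF_LF, from 112.1 through 185.1 to 302.8 in LF_HF, from 76.8 through 118.1 to 162.4 in HF_LF and from 103.5 through 115.45 to 163.3 in HF_HF. The LF_HF group was the most spread, and 5 of its values exceeded every value of the other groups. Over both offspring diets Socs3 fell by 0.45 ± 0.11 with an HF dam (fold 0.734, limma adjusted p = 0.0341), in a comparison where 74 of 12467 probes (0.594%) passed. Of the 8 member probes it was the 1 that did, and it no longer did without any of 10 single animals (limma adjusted p of 0.0504 to 0.0599).

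Each pairwise comparison of Socs3 missed the adjusted threshold. With offspring on LF the change was -0.27 ± 0.11 (p = 0.0186, limma adjusted p = 0.551), and with offspring on HF it was -0.62 ± 0.17 (fold 0.652, p = 0.00116, limma adjusted p = 0.381), where no probe passed (0% of 12467, and 903 or 7.24% at an unadjusted p under 0.05). HF feeding gave 0.39 ± 0.17 among offspring of LF dams (p = 0.0308, limma adjusted p = 0.228) and 0.22 ± 0.11 over both dam diets (p = 0.0444, limma adjusted p = 0.223). Among offspring of HF dams the change was 0.05 ± 0.10 (p = 0.638). The interaction was -0.34 ± 0.21 (p = 0.109). Within the array sets the difference between dam diets was -0.14 and -0.48 with offspring on LF and -0.31 and -0.85 with offspring on HF.

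The highest Socs3 values came from 1 cage of LF dams. Its 3 LF_HF animals had 259.9, 302.8 and 300.9, the highest values of all 40 animals, and its 2 LF_LF animals had 156.1 and 175.7. The same 3 LF_HF animals had Cish values of 2378.1, 2745.3 and 2365.7. Without that cage, number 11, the Socs3 change over both offspring diets was -0.28 (limma adjusted p = 0.333), and that with offspring on HF was -0.34 in place of -0.62 (limma adjusted p = 0.979). Without it the change with HF feeding was 0.18 in place of 0.39 among offspring of LF dams and 0.10 in place of 0.22 over both dam diets (limma adjusted p = 0.593). The call over both offspring diets was also lost without any of 6 other cages (4, 9, 12, 20, 21 and 23), at changes of -0.47 to -0.42 (limma adjusted p of 0.0588 to 0.103). Without cage 14, whose 2 LF_HF animals had 112.6 and 112.1, the change with HF feeding among offspring of LF dams was 0.57 (limma adjusted p = 0.0305). With 1 mean per cage and group the Socs3 change over both offspring diets was -0.38 (limma adjusted p = 0.452).

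**Figure D3:**
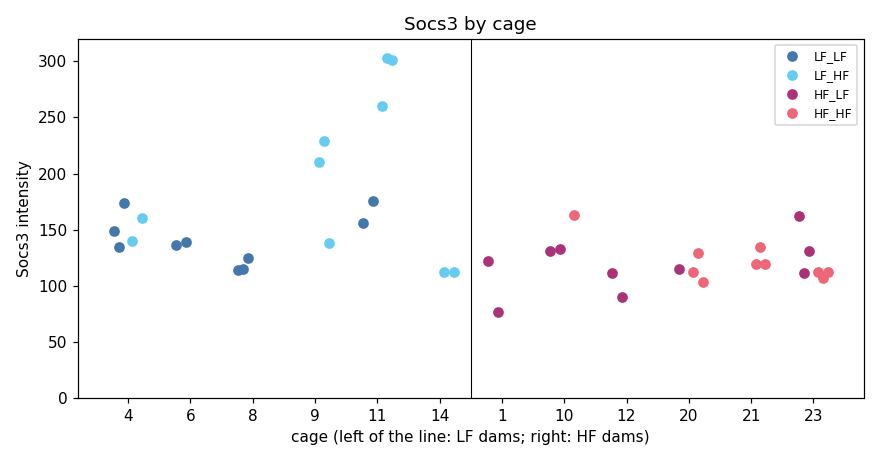
Socs3 intensity (y axis, from 0) of each animal by cage (x axis), with cages of LF dams left of the line and of HF dams right of it; colours are the 4 diet groups. The 3 highest points, at 259.9 to 302.8, are LF_HF animals of cage 11, and no animal of an HF dam exceeded 163.3.

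Stat5a, the measurable STAT5 gene, did not pass in any comparison. Its brighter probe had group medians between 145.9 and 152.9 and changed by -0.06 to 0.04 in the pairwise comparisons, and its dimmer probe had medians between 81.05 and 84.25 and changed by -0.09 to 0.09. The 95% intervals of these 8 changes reached from -0.211 to 0.196. Both probes are annotated to the same transcript, and they had a group-centred r of 0.098. The dimmer probe ran from 65.4 to 95.8, which overlaps the 60.9 to 84.8 of the untested Socs1 probe. It lay near background, so its changes say little of Stat5a. The brighter probe differed between the array sets, as given above. The cause of the low r was not tested. No member had an unadjusted p under 0.05 for the interaction of the diets (lowest p = 0.0781, for Socs2), and over all tested probes 0% passed, with 647 (5.19%) at an unadjusted p under 0.05 (limma).

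Cish and Socs2 rose and dipped together from animal to animal within groups. With group means subtracted, their Pearson r over the 40 animals was 0.695 (permutation p = 1e-05, the smallest the 100000 permutations can give) and Spearman's rho 0.627 (permutation p = 7e-05). The r of LF_LF was 0.854, that of LF_HF 0.668, that of HF_LF 0.675 and that of HF_HF 0.611. Without the 2 HF_LF animals farthest from the median of Cish it was 0.668. With the array set also subtracted it was 0.696, and with cage means in place of dam diet 0.635. Of all 12466 other tested probes, Cish was the one most alike to Socs2, and Socs2 was the 4th most alike probe to Cish.

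The other member pairs were less close. Of the 15 pairs of the 6 tested genes, Socs2 with Socs3 had r = 0.425 (permutation p = 0.00723) and rho = 0.399 (permutation p = 0.0151), with r = 0.363 without the 2 animals farthest from the median of Socs2 and 0.171 once cage means were subtracted. Cish with Socs3 had r = 0.356 (permutation p = 0.0343) and rho = 0.499 (permutation p = 0.00214), but an r of 0.017 once cage means were subtracted. Cish with Ghr had r = 0.346 (permutation p = 0.0399) and rho = 0.226 (permutation p = 0.179), and the group values ran from -0.33 in LF_LF to 0.765 in LF_HF. The other 11 pairs had r between -0.254 and 0.167, none with a permutation p under 0.05. Igf1 in particular had an r of 0.043 with Cish and 0.053 with Socs2.

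**Figure D4:**
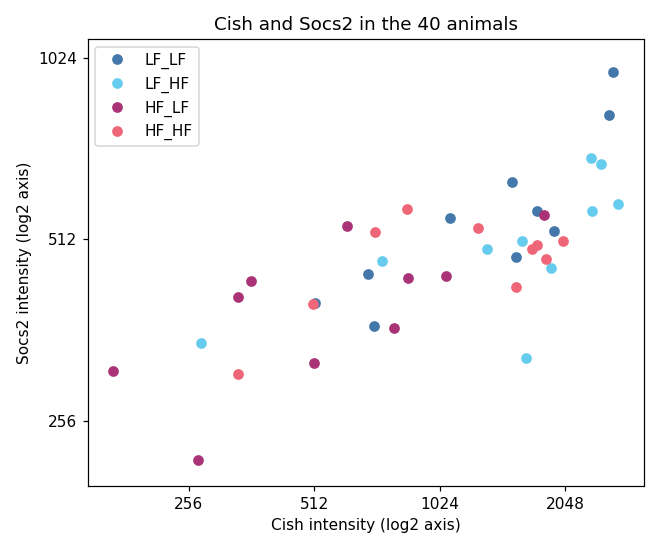
Socs2 intensity (y axis) against Cish intensity (x axis), both log2-spaced, in the 40 animals, coloured by diet group. The points run from lower left to upper right in every group (r within groups of 0.611 to 0.854), and the HF_LF animals hold the lowest values of both genes.

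The genes most like each member over the animals, by group-centred r, are given as a description. For Cish they were the potassium channel subunit Kcnf1 (0.818), the Wnt pathway gene Frat2 (0.797) and Socs2, and for Socs2 they were Cish, Shisa2 (0.684) and the tetraspanin Tspan14 (0.663). For Socs3 they were the kinase Map3k14 (0.685), Sh3bp2 (0.56) and the heat shock gene Hsph1 (0.558). For Igf1 they were the small GTPase Rab8b (0.805), clusterin, Clu (0.736), and the surface glycoprotein Thy1 (0.702). For Ghr they were Tmem68 (0.686), the RNA methylation reader Ythdc1 (0.682) and Bckdhb, a subunit of the branched-chain ketoacid dehydrogenase (0.649). For Stat5a they were the potassium channel Kcnc1 (0.715), Cnnm3 (0.701) and the transporter Abcb6 (0.674).

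Upstream of STAT5, the list of growth hormone receptor, JAK kinases and adaptors had 7 tested genes. Among offspring of LF dams Ghr, itself a member described above, and Jak2 fell and none rose (median of the 7, -0.063, against -0.008 over all probes). Of all 12467 tested probes 521 (4.18%) passed in that comparison, 222 of them lower. Jak2, the kinase bound to the receptor, ran from 571.6 to 754.9 in LF_LF and from 485.8 to 628.8 in LF_HF, and changed by -0.28 ± 0.054 (limma adjusted p = 0.00428). In HF_LF it ran from 609.5 to 856.1 and in HF_HF from 461.2 to 823.5, and over both dam diets it fell by 0.21 ± 0.052 (limma adjusted p = 0.00918), with -0.13 ± 0.085 (p = 0.139) among offspring of HF dams alone. Without cage 11 neither call held (-0.26 and -0.19, limma adjusted p = 0.105 and 0.0551). The call among offspring of LF dams was also lost with cage as a fixed block (-0.28, limma adjusted p = 0.179), and that over both dam diets with the slow fibre score in the fit (-0.16, limma adjusted p = 0.0812). Its group-centred r with Ghr was -0.143. None of the 4 tested STAT genes, of the 7 phosphatases and PIAS proteins that oppose JAK-STAT signalling, or of the 4 tested prolactin, erythropoietin and cytokine receptor genes passed in any comparison.

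Downstream, 8 genes of a list of 10 that respond to STAT5 in several tissues were tested. Over both offspring diets 2 fell with an HF dam, Socs3 and the transcriptional repressor Bcl6, and 6 of the 8 had lower values at an unadjusted p under 0.05, with a median of -0.287 against -5e-04 over all probes. Over all tested probes 0.594% passed, and 3.79% were lower at an unadjusted p under 0.05. The list shares Cish, Socs2, Socs3 and Igf1 with the members. It does not mark whether STAT5 raises or lowers a gene, so its counts and median give no direction of STAT5 activity. Bcl6 ran from 1765.2 through 2109.9 to 2283.9 in LF_LF, from 1702.5 through 2240.8 to 3168 in LF_HF, from 1155.7 through 1648.15 to 2417.6 in HF_LF and from 1412.1 through 1798.65 to 2405.8 in HF_HF. Bcl6 fell by 0.33 ± 0.078 (limma adjusted p = 0.0319), a call that was lost without any of 9 single cages (-0.28 and limma adjusted p = 0.25 without cage 11). Of 12 other settings 2 lost it (limma adjusted p up to 0.439), among them the array set as a block (-0.29, limma adjusted p = 0.0996). The dam's diet was shared by a cage, and with 1 mean per cage and group 1 of all tested probes passed in place of 74. Its group-centred r was 0.158 with Cish and 0.067 with Socs3, so it did not track them from animal to animal. The SOCS family as a whole had 6 tested genes, of which Socs3 alone passed.

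Of the list of insulin-like growth factor ligands, receptors and substrates, Igf2, Grb10 and Grb14 passed in at least 1 comparison of offspring diets and none of the 9 tested genes in a comparison of dam diets. Igf2, the second ligand, ran from 806.9 to 969.8 in LF_LF and from 633.6 to 835.8 in LF_HF and changed by -0.22 ± 0.050 (limma adjusted p = 0.0124). Over both dam diets it fell by 0.19 ± 0.040 (limma adjusted p = 0.00135), with -0.16 ± 0.065 among offspring of HF dams alone (p = 0.0181, limma adjusted p = 0.324). The receptor adaptors Grb10 and Grb14, which bind and inhibit the insulin and IGF receptors, went in different directions. Grb10 fell by 0.40 ± 0.080 among offspring of HF dams (limma adjusted p = 0.0251), from a mean of 631.7 to 479.5, and by 0.27 ± 0.058 over both dam diets (limma adjusted p = 0.00201). Grb14 rose by 0.35 ± 0.083 among offspring of LF dams (limma adjusted p = 0.0169), from a mean of 115.6 to 147.7. Of the 9 tested genes of the list of ligands, receptors and substrates, Igf2 and Grb10 passed over both dam diets, and the median of the 9 was 0.009. Of all tested probes 7.76% passed over both dam diets, 4.18% among offspring of LF dams and 0.361% among those of HF dams. In the pairwise comparisons the calls of Igf2 and Grb14 were lost without cage 4 (limma adjusted p = 0.108 and 0.163) or cage 11 (0.0918 and 0.21), and that of Grb10 without cage 21 (0.146) or cage 23 (0.311). With the slow fibre score in the fit Grb14 changed by 0.23 (limma adjusted p = 0.281) and Igf2 by -0.23 (0.0878).

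Igfbp5, the binding protein that is abundant in muscle, had the lowest adjusted p of the listed pathway genes among offspring of LF dams. It ran from 5278.8 through 5776.25 to 6518.4 in LF_LF and from 3663.3 through 4252.75 to 4977.8 in LF_HF, without overlap, and fell by 0.45 ± 0.058 (limma adjusted p = 0.000101). In HF_LF it ran from 4394.6 through 5439.25 to 6881.1 and in HF_HF from 2576.2 through 4539.2 to 5582.3. Its change among offspring of HF dams, -0.38 ± 0.12, did not pass (p = 0.00336, limma adjusted p = 0.173). Over both dam diets Igfbp5 fell by 0.41 ± 0.066 (limma adjusted p = 6.52e-05). It was the 1 of 7 tested genes of the binding proteins and their proteases that passed, beside 7.76% of all tested probes. Its group-centred r was 0.341 with Ghr and -0.044 with Igf1.

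Receptors, ligands and inducers upstream of Socs3, interferon-responsive genes and immediate early genes were set beside it. None of the 7 tested gp130 and leptin receptor genes, ligands and inducers passed in any comparison, and none of the 10 tested interferon-responsive genes did. Over both offspring diets, where Socs3 fell with an HF dam, 3 of the 7 were higher at an unadjusted p under 0.05 and 0 lower. Cebpb, 1 of these, changed by 0.31 ± 0.088 (p = 0.000966, limma adjusted p = 0.104). Over all tested probes 6.17% were higher at an unadjusted p under 0.05. Of 11 tested immediate early genes 3 rose with HF feeding over both dam diets, Junb (0.18 ± 0.051, limma adjusted p = 0.0218), Atf3 (0.39 ± 0.092, limma adjusted p = 0.00559) and Ier3 (0.21 ± 0.062, limma adjusted p = 0.0305), with a list median of 0.051, in the comparison where 7.76% of all tested probes passed. Atf3 was dim, with medians of 86.4, 108.7, 78.3 and 98.05 in LF_LF, LF_HF, HF_LF and HF_HF. These lay near the background range of Socs1 (60.9 to 84.8), and the highest Atf3 value, 300, came from LF_HF. Junb was also dim, with group medians of 96.5 to 110.45. Ier3 no longer passed without any of 7 single cages, and Junb without cage 4 (limma adjusted p = 0.0586) or cage 23 (0.0681). None of the 11 passed with the dam's diet, where Socs3 did. Over both offspring diets 2 of the 11 were lower with an HF dam at an unadjusted p under 0.05 and 1 was higher. The group-centred r of Junb, Atf3 and Ier3 with Socs3 was 0.31, 0.023 and 0.096.

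Weights at 3 weeks and at a later age and the body length stand in the labels, which allowed the members to be set against growth. Median weight at 3 weeks was 10.995 g in HF_LF and 11.59 g in HF_HF, above the 9.885 g of LF_LF and the 9.075 g of LF_HF. At the later weighing the offspring's diet separated the groups without overlap, at 23.38 to 26.83 g in LF_LF against 27.2 to 32.6 g in LF_HF and at 20.38 to 25.82 g in HF_LF against 28.44 to 34.06 g in HF_HF. Median length was 100 and 98 mm in the groups fed LF (LF_LF and HF_LF), 103 mm in LF_HF and 102.5 mm in HF_HF, the last over 8 animals because length was missing for 2. Since the measures differed between groups, relations were computed within groups only, 18 in all for 6 genes and 3 measures.

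No member gene had a slope on any of the 3 measures that passed in limma, and neither did any other probe (0% of 12467 for each measure, with 570, 525 and 340 probes at an unadjusted p under 0.05 for weight at 3 weeks, later weight and length). Socs3 on length had the largest relation, a slope of 0.07 ± 0.032 on the log2 scale per mm (p = 0.023, limma adjusted p = 0.999). Its group-centred r over 38 animals was 0.362 (permutation p = 0.0622) and its rho 0.164 (permutation p = 0.355). The value was 0.704 in LF_HF but -0.337 in LF_LF and -0.339 in HF_HF. It was 0.264 without the 2 animals farthest from the median length and -0.06 among animals of the same cage and group. Without cage 14 the slope was 0.03 per mm.

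Ghr, whose level differed with the diet that also separated the weights, had a group-centred r of -0.15 with later weight (permutation p = 0.383), -0.158 with length (permutation p = 0.381) and -0.131 with weight at 3 weeks (permutation p = 0.435). Igf1 had an r of 0.206 with length (permutation p = 0.264) and 0.056 with later weight (permutation p = 0.747). Over all 18 relations r lay between -0.174 and 0.362 and no permutation p of r was under 0.05. Socs2 with length reached an r of 0.698 in the 8 HF_HF animals but -0.348 in the 10 LF_LF animals.

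**Figure D5:**
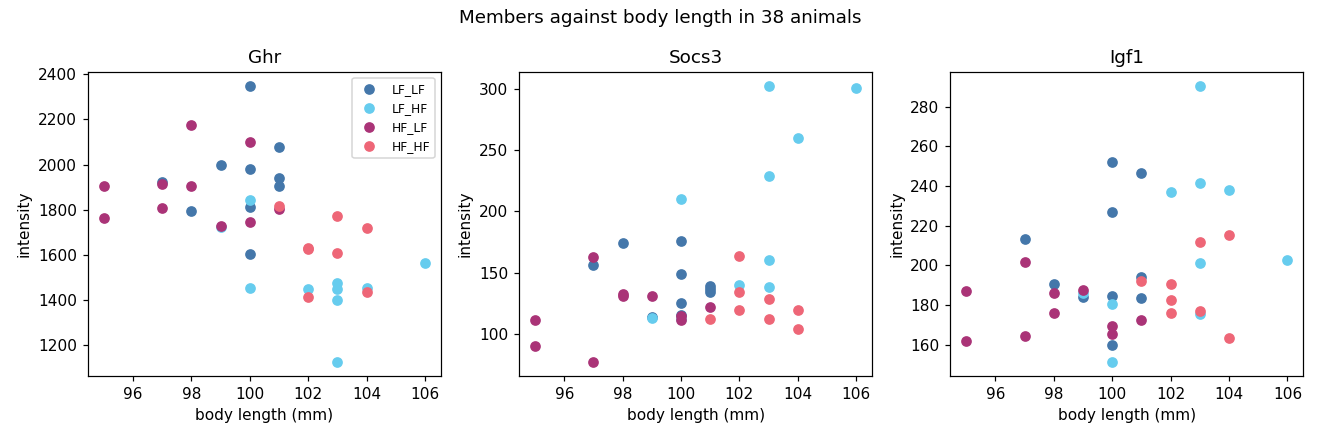
Intensity (y axes, linear, not starting at 0) of Ghr, Socs3 and Igf1 against body length in mm (x axes) for the 38 animals with a length, coloured by diet group. Ghr was lower and length greater in the groups fed HF after weaning, both with overlap. No slope passed the threshold inside groups (r = -0.158 for Ghr), and the Socs3 relation (r = 0.362) is carried by LF_HF animals.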

How the data were processed

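Total RNA from thigh muscle of 40 mice was hybridised to 1 beadchip each. Per the labels, BeadStudio was used (version not given in the sources used here), and the deposited intensities were quantile-normalised by the authors over the 40 muscle arrays, on a linear scale. Quantile normalisation forces 1 distribution on all arrays, so a shift shared by most genes cannot be seen, and the number of arrays limits the precision. Probe symbols came from the platform annotation (23978 probes with 1 symbol, 1719 with none, 0 with several).

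Intensities were taken to log2. Probes above their array's median in at least 20 of 40 arrays were tested (12467 probes, 8690 genes) with limma 3.58.1 in R 4.3.3 (intensity trend, Benjamini-Hochberg over all tested probes, threshold 0.05). Each pairwise comparison used its 20 arrays, and comparisons over both diets used all 40 with the other diet in the fit. Pairwise comparisons share groups and are not independent of each other. Slopes on body measures had the 4 groups in the fit, and correlations used group-centred values with 100000 shuffles within groups (two-sided). The limma step was tested on simulated data. The label of the later weight names weaning, but its values exceed those at 3 weeks, so it was treated as a later weight.

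The members and gene lists were chosen with earlier results of these data known. A gene was described by its brightest probe, with other probes beside it. Fold changes with errors were given where the unadjusted p was under 0.05, and listed genes were named where they passed, at most 4 for each list and comparison. Alternatives covered the filter, an offset of 50, background subtraction, array centring, no intensity trend, array set, cage, marker scores, later weight, 3 arrays high in immune markers, and single arrays and cages left out. The adipocyte score as a covariate was chosen after seeing the data.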

Additional observations from a re-analysis of the deposited data

How the results depend on the processing

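Over 2283 alternatives of the printed results, 2110 kept their side of the threshold, 167 no longer passed or lost calls and 6 gained a call. Of the effects among them, 0 changed sign. Results that had not passed and counts of 0 are included and had no call to lose, so these totals do not measure how firm the calls are. Over both offspring diets the call of Socs3 was kept in 5 of 12 single-cage omissions and that of Bcl6 in 3 of 12. The count of member probes called among offspring of LF dams was 1 and became 0 with cage as a fixed block in the cages with both diets (Ghr -0.31, limma adjusted p = 0.0933) and with later weight as a covariate. Among offspring of HF dams it was 0 and became 1 with the array set as a block. Over both dam diets it was 2 and became 1 with no filter, cage as a fixed block, 1 mean per cage, the 3 immune-high arrays left out, or the slow fibre or adipocyte score as a covariate, since Ghr's dimmer probe no longer passed, and 0 with later weight as a covariate (Ghr -0.25, limma adjusted p = 0.718), a fit in which 0 of all tested probes passed. Later weights did not overlap between offspring diets of the same dam diet, so weight and diet cannot be told apart there. Over both offspring diets the count was 1 (Socs3) and became 0 with no filter (limma adjusted p = 0.0501) and with 1 mean per cage and group. The cause was not tested.

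Leaving out 1 array or cage gave counts of 1 to 2 among offspring of LF dams, 1 to 2 over both dam diets, 0 to 1 over both offspring diets and 0 to 0 elsewhere. The brighter Ghr probe passed each time over both dam diets (-0.328 to -0.268) and among offspring of LF dams (-0.421 to -0.328). Its dimmer probe passed among offspring of LF dams without LF_HF animal 5 (-0.29, limma adjusted p = 0.0413), and over both dam diets no longer passed without LF_LF 2, HF_LF 2, 6 or 9, LF_HF 4, 6 or 8, HF_HF 4, or cages 4, 6, 8, 10, 11, 21 or 23 (limma adjusted p up to 0.099). Socs3 over both offspring diets no longer passed without HF_LF 4, HF_HF 4, 5 or 10, LF_HF 5, 6, 8, 9 or 10, LF_LF 10, or cages 4, 9, 11, 12, 20, 21 or 23, at -0.276 to -0.468 without a cage. Among offspring of LF dams the calls of Igf2 and Grb14 were also lost with 1 mean per cage (limma adjusted p = 0.0551 for both), that of Igf2 with cage as a fixed block (0.184), and that of Grb14 with the adipocyte score (0.0588) and with all 40 arrays in 1 fit (0.0645). Jak2 over both dam diets no longer passed with 1 mean per cage (0.0518). With later weight as a covariate none of the listed genes passed in the comparisons of offspring diets. Consensus correlations within cages, over all tested probes, were -0.057 to 0.057. No paired analysis was possible by replicate number, because these numbers were given in accession order and only name animals. Animals on different diets were matched by cage instead, as the fixed block above.

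The count of all tested probes that passed moved by more than 1.5 times under some settings. Among offspring of LF dams 521 became 319 with no filter, 108 with cage as a fixed block, 149 with 1 mean per cage, 83 with the slow fibre score, 284 with the adipocyte score and 0 with later weight. Among offspring of HF dams 45 became 29, 19 and 0 under the first 3 of these, 85 with all 40 arrays in 1 fit, 69 with the array set as a block and 0 with later weight. Over both dam diets 968 became 352, 330, 608 and 0 with cage as a fixed block, 1 mean per cage, the slow fibre score and later weight. Over both offspring diets 74 became 47 with no filter, 1 with 1 mean per cage and 40 with the array set as a block. In the pairwise comparisons of dam diets, 2 became 0 to 9 with offspring on LF and 0 became up to 5 with offspring on HF. Leaving out single arrays or cages gave 59 to 647, 1 to 63, 551 to 1162 and 9 to 128 in the first 4 of these comparisons.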
